A study of Mus musculus with 8 samples.

Results

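Peptide hormones of the enteroendocrine cells were compared between Plagl2 knockout and wild-type fetal mouse small intestine. The 10 hormone genes were Sct, Pyy, Nts, Insl5, Gip, Cck, Gcg, Ghrl, Sst and Tac1, and their members were all probe sets annotated with that 1 symbol alone. This gave 11 probe sets for 10 genes, of 45101 probe sets in all, with 1 each except for Tac1, which had 2. The study hybridised total RNA from small intestines of fetuses at 18.5 days post coitum to Affymetrix MOE430 2.0 arrays. There were 4 wild-type samples, replicates 1 to 4, and 4 samples from fetuses lacking Plagl2, the gene of a DNA-binding zinc finger protein in the PLAG family. The labels name no treatment, strain or knockout allele and do not say whether samples came from separate litters. Their extraction text speaks of wild-type tissue for all 8 samples, so genotypes follow the titles, against which the Plagl2 signal is set below. P-values therefore measure the spread between these samples.

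Enteroendocrine cells are scattered single cells of the gut epithelium that store peptide hormones in dense-core granules and release them when nutrients arrive. They arise from epithelial progenitors that switch on Neurog3. Their hormone content differs along the gut, with Gip and Cck typical of the upper small intestine and Nts, Pyy, Gcg and Insl5 of more distal segments. Prohormones are cut by convertases inside the granule, which also holds chromogranins. Several of these peptides are also made elsewhere: Gcg and Sst in pancreatic islets, Ghrl and Sst in the stomach, and Tac1, Sst and Cck in neurons.

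Plagl2 itself was at 697 to 824 in wild-type and 3 to 11 in knockout arrays (signal of 1417517_at). Arrays were alike in median signal (36 to 42). For 3' against 5' control probe sets, whose log2 ratio is a sign of RNA quality, the array means were -0.055 to 0.007 in wild-type and 0.017 to 0.098 in knockout arrays. The ratio thus differed with genotype without overlap, and its part in the results was not tested beyond the fits that include it as a term. Xist, which marks the inactive X chromosome, was bright in knockout replicates 2 and 3 (1828 and 1410) and at most 47 in the other 6 arrays, so the Xist-bright arrays were all knockouts. The summed signal of 10 epithelial markers of the small intestine was 36346 to 42354 in wild-type and 35015 to 42527 in knockout arrays, all 10 being above the filter. Of these, Cdx1, an intestinal homeobox factor, was called as lower (log2 fold change -1.01 ± 0.16 SE, adjusted p = 0.00113). By limma at an unadjusted p under 0.05, 3 of the 10 were lower and 0 higher, and 8 had a negative log2 fold change. Of all 12838 genes, 8.50% were called as lower, 15.0% were lower at an unadjusted p under 0.05, and 5999 had a negative value. Cdx2, named after its values were seen, did not pass from its brighter probe set (-0.38, limma adjusted p = 0.162). Its other probe set was at 373 to 402 in wild-type and 224 to 309 in knockout arrays. Wild-type replicate 3 and knockout replicate 1 had hormone values that stood apart, as given below.

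The sequences upstream of the 4 hormone genes that were lower in the knockout are shown because their signals went the same way. They are up to 250 bases before the start site, from RefSeq on GRCm38.p6, written 5′ to 3′ along the gene's strand and ended where the annotated gene begins. Capitals mark CAGCTG, a sequence bound by basic helix-loop-helix factors such as Neurod1, GATAA, the core read by GATA factors, and TATAA, the TATA box core.
Sct, chr7:141279175-141279383, minus strand: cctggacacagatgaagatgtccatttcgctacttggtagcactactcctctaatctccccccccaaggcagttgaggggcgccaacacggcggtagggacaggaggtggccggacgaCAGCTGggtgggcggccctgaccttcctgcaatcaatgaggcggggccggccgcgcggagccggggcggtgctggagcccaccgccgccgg
Pyy, chr11:102107833-102108082, minus strand: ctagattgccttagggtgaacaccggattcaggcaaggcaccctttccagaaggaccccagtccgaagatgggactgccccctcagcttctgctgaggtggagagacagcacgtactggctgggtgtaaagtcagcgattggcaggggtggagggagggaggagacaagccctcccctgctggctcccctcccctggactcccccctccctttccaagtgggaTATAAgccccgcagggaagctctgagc
Nts, chr10:102490419-102490668, minus strand: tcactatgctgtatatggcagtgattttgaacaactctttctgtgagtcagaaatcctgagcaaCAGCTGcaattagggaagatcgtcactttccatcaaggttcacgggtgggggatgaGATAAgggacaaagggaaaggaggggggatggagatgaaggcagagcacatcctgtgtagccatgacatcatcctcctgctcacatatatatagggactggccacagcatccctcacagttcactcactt
Insl5, chr4:103027272-103027521, minus strand: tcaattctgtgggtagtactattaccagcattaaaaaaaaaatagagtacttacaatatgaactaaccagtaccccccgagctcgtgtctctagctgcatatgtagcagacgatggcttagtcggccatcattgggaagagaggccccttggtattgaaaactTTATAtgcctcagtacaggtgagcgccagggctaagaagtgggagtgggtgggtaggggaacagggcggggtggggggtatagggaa

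All 10 hormone genes were found in the table of start sites, with 15 windows of 250 bases. Both strands were searched (GATAA also as its reverse complement TTATC, and TATAA as TTATA), and matches of different motifs could overlap. CAGCTG was present upstream of 4 of the 10 genes (Sct, Nts, Gip and Ghrl), against 14.7% of all 27025 genes with such windows. GATAA was present in 5 of the 10 (Nts, Cck, Gip, Tac1 and Insl5), against 25.5%. For Insl5 the 3 matches lay in the window of its other start site, which is inside the annotated gene and is not printed. TATAA was present in 5 (Sct, Pyy, Gip, Gcg and Insl5), against 25.8%, and the match of Sct lay in the end that was left off above. GGGGGCC and GGAGGCC, G-rich sequences searched because of PLAG family proteins, were found upstream of 0 of the 10 genes, against 13.1% of all genes. Shorter or other forms of the sequence that PLAG family proteins bind were not searched. A match is a description of letters, and its absence says only that these letters are not in this window.

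Of the 10 hormone genes tested, 4 were lower in the knockout and 0 higher, by limma across all 27022 probe sets with Benjamini-Hochberg adjusted p under 0.05. Insl5, Nts, Sct and Pyy were the lower ones, and each had every knockout array below every wild-type array. For reading this count, 12.0% of all tested probe sets were called, 6.70% as lower and 5.28% as higher, while 9.26% had all knockout arrays below all wild-type arrays and 7.70% all above. Counted by gene, with 1 probe set for each of 12838 genes, 8.50% were called as lower and 6.60% as higher. At an unadjusted p under 0.05, 6 hormone genes were lower and 0 higher, against 12.7% and 12.9% of all tested probe sets. By gene these shares were 15.0% and 14.7%. Insl5 passed the filter only through its wild-type signal, and of the other 9 genes 3 were lower, with a median log2 fold change of -0.50. The median log2 fold change of the hormone probe sets, knockout over wild-type after adding 16 to each signal, was -0.65, against 0.03 over all tested probe sets. Of the 10 values, 8 were negative, and 46.4% of all tested probe sets were negative. In bulk intestine, fewer cells of a type and less hormone RNA per cell cannot be told apart.

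**Figure D1:**
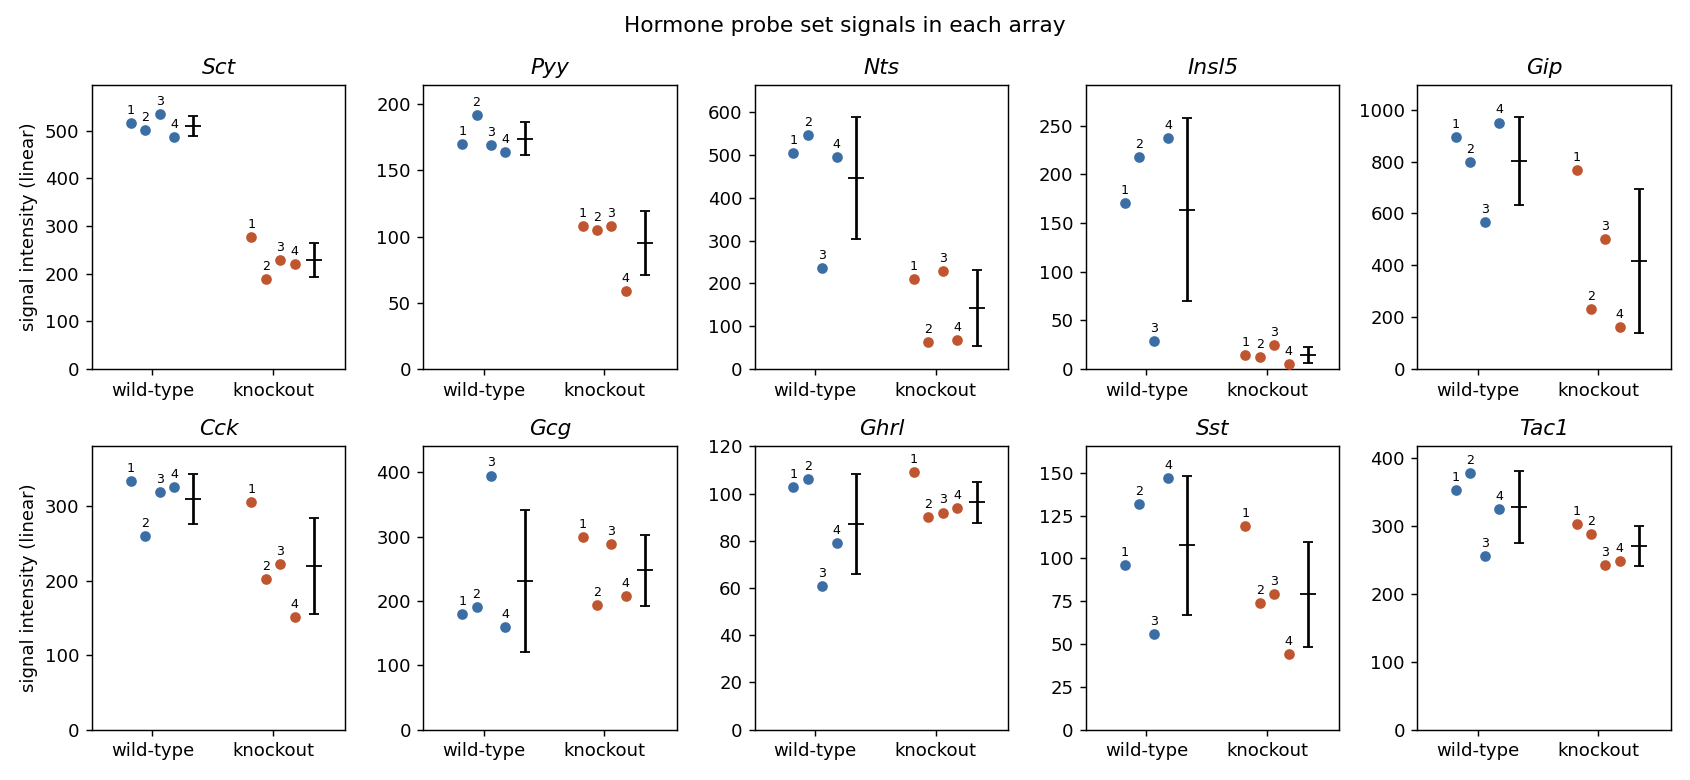
Signal intensity (linear, vertical axis from 0) of the tested probe set of each hormone gene in each array, wild-type in blue and knockout in orange, with replicate numbers; black marks are the mean with the SD of 4 arrays. Sct, Pyy, Nts and Insl5 have no overlap between genotypes, wild-type replicate 3 is the lowest wild-type array for 6 genes, and knockout replicate 1 is the highest knockout array, alone or tied, for 8.

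Secretin, encoded by Sct, is released by S cells when acid reaches the duodenum and makes the pancreas secrete bicarbonate. Its probe set 1418805_at gave 516, 501, 535 and 487 in wild-type replicates 1 to 4. In knockout replicates 1 to 4 it gave 277, 189, 229 and 221. The wild-type arrays lay close together and all knockouts were far below them, with wild-type replicate 3 the highest of its group. Means were 510 ± 20.6 and 229 ± 36.4 (SD, n = 4), which is 2.23 times more signal in wild-type. The log2 fold change was -1.11 ± 0.12 (SE, 95% interval -1.37 to -0.85, limma adjusted p = 7.97e-05), and Sct stayed called under each of the 22 alternatives run (-1.23 to -0.98).

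Peptide YY, encoded by Pyy, is a hormone of L cells that slows gut transit and reduces appetite. Signals of 1424865_at were 170, 192, 169 and 164 in wild-type and 108, 105, 108 and 59 in knockout replicates 1 to 4. Knockout replicates 1 to 3 were nearly equal, and replicate 4 was clearly lower than they were. The group means were 174 ± 12.4 and 95 ± 24 (SD, n = 4). Pyy fell by 0.80 on the log2 scale (SE 0.17, limma adjusted p = 0.00911). The call was kept with any 1 array left out (log2 fold change -0.87 to -0.62) and ended only in an unmoderated linear model (adjusted p = 0.0555), among the alternatives run.

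Neurotensin, encoded by Nts, is made by N cells of the distal small intestine and promotes fat absorption and slows motility. Signals of 1422860_at were 506, 547, 235 and 496 in wild-type replicates 1 to 4. The knockouts gave 210, 64, 230 and 68. Wild-type replicate 3 thus lay just above knockout replicates 1 and 3, while knockout replicates 2 and 4 were far below both. Means were 446 ± 142 and 143 ± 89.3 (SD, n = 4), and the log2 fold change was -1.66 ± 0.38 (SE, 95% interval -2.50 to -0.83, limma adjusted p = 0.014). The call ended without wild-type replicate 2 (adjusted p = 0.0508) and with replicate number as a block (0.0525). It also ended in an unmoderated linear model (0.121) and with the Xist signal as a covariate (0.0767). Without wild-type replicate 3, the wild-type mean of Nts was 516.

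Insulin-like peptide 5, encoded by Insl5, is a hormone of L cells, mostly of the large intestine, that acts on the receptor Rxfp4. Its probe set 1449493_at gave 170, 218, 29 and 237 in wild-type and 14, 12, 25 and 5 in knockout replicates 1 to 4. All knockouts were near the bottom of the scale, and wild-type replicate 3 was close to them. Group means were 164 ± 94 and 14 ± 8.29 (SD, n = 4). The knockout mean lay under the filter value of about 23.0, so Insl5 was tested only because of its wild-type signal, and no exact fold is given. In the fit its log2 fold change was -2.36 ± 0.46 (SE, limma adjusted p = 0.00569). That size depends on the added constant, with -3.28 for an added 1 and -1.42 for an added 64. The probe set was kept out by a filter of the lowest 60%, and lost its call in an unmoderated linear model (adjusted p = 0.079).

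As Insl5 is best known from the colon, colon markers were read beside it. The homeobox gene Hoxb13 of the hindgut was at 1 to 4 in all 8 arrays, and 4 of the 9 colon markers on the array were under the filter. The summed colon marker signal was 1911 to 6071 in wild-type and 3971 to 7292 in knockout arrays, with overlap. Zg16, a goblet cell lectin, gave the largest share of that sum in every array, while Retnlb, a goblet cell peptide, was at -1.20 (adjusted p = 0.514), both named after their values were seen. The part of colon tissue in the Insl5 values was not tested. Among these markers Car4, a membrane carbonic anhydrase, was called as higher in the knockout (2.59 ± 0.35 SE, limma adjusted p = 0.000468). Its wild-type mean of 17.2 was under the filter value, and the size was 3.84 with an added 1 and 1.53 with an added 64. The ileal bile acid binding protein gene Fabp6, the first of the regional markers by p, gave 222, 460, 13 and 101 in wild-type and 321, 4286, 4505 and 131 in knockout arrays (2.82, adjusted p = 0.129). Gata4, a factor of the proximal intestine, had 0.15 (adjusted p = 0.423), and 0 of the 4 tested regional markers were called by limma (0 lower and 1 higher at an unadjusted p under 0.05). The highest Fabp6 arrays were knockout replicates 2 and 3, whereas Nts was lowest in knockout replicate 2 (64) and highest among knockouts in replicate 3 (230). Among the wild-types, replicate 2 was highest and replicate 3 lowest for both genes. Summed signal of the 7 regional markers was 638 to 1203 in wild-type and 929 to 5356 in knockout arrays, and the part of gut region in these results was not tested.

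Glucose-dependent insulinotropic peptide, encoded by Gip, is the K cell hormone that raises insulin release after a meal. Signals of 1449908_at were 896, 800, 567 and 951 in wild-type and 769, 231, 503 and 160 in knockout replicates 1 to 4. Knockout replicates 2 and 4 were low, whereas knockout replicate 1 lay within the wild-type range, so the groups overlapped. The log2 fold change was -1.14 ± 0.38 (SE, 95% interval -1.97 to -0.31) and did not pass (limma adjusted p = 0.0765). Gip was called as lower without knockout replicate 1 (-1.51, adjusted p = 0.0121), with array weights (-1.19, 0.0374) and when each array's ratio of 3' to 5' control signal entered the fit (-2.15, 0.0186).

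Cholecystokinin, encoded by Cck, is the I cell hormone that contracts the gallbladder and stimulates pancreatic enzymes. Its probe set 1419473_a_at gave 334, 260, 319 and 326 in wild-type and 306, 202, 222 and 151 in knockout replicates 1 to 4. Knockout replicate 1 again reached the wild-type range, and the other 3 knockouts were below it. The log2 fold change of Cck was -0.50 ± 0.18 (SE, 95% interval -0.89 to -0.11, limma adjusted p = 0.0988), and without knockout replicate 1 it was called as lower (-0.66, adjusted p = 0.0232).

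**Figure D2:**
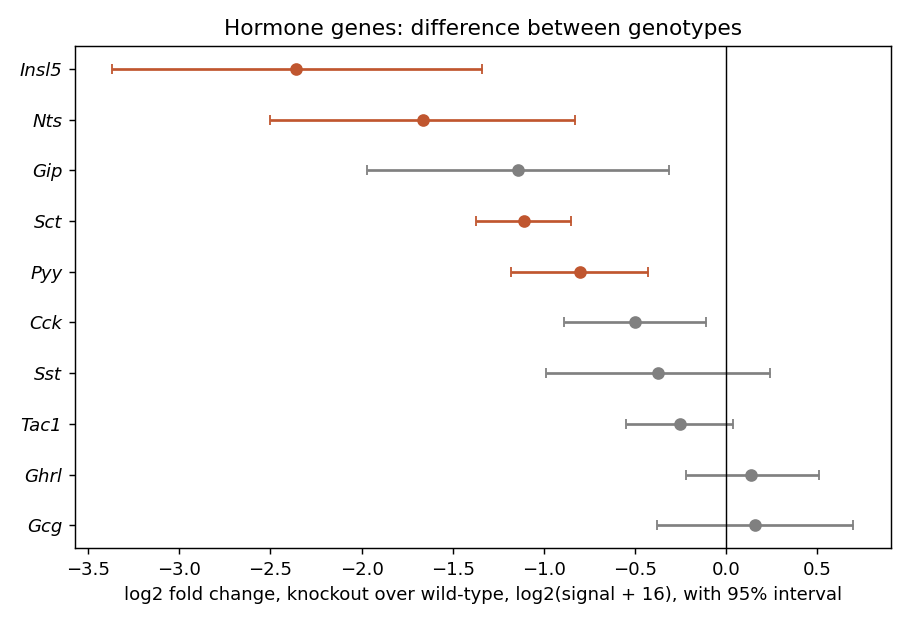
Log2 fold change (knockout over wild-type, 16 added to each signal) of each tested hormone probe set, with its 95% interval from limma; orange points had an adjusted p under 0.05 and grey points did not. The values run from -2.36 for Insl5 to 0.16 for Gcg, and the intervals of Gcg, Ghrl, Sst and Tac1 include 0.

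Proglucagon, encoded by Gcg, is cut to GLP-1 and GLP-2 in L cells and to glucagon in islet alpha cells. Signals of 1425952_a_at were 180, 191, 395 and 159 in wild-type and 300, 194, 289 and 207 in knockout replicates 1 to 4. Wild-type replicate 3 was highest, followed by knockout replicates 1 and 3, and the groups overlapped. The log2 fold change was 0.16 (95% interval -0.38 to 0.70, limma adjusted p = 0.742), an interval that leaves room for differences in either direction. Ins2, the islet insulin gene, was above 100 in these same 3 arrays only, with 129 in wild-type replicate 3, 159 in knockout replicate 1 and 137 in knockout replicate 3, against 8 to 28 elsewhere. Iapp, the islet amyloid peptide, gave 112, 120 and 113 there and 52 to 94 elsewhere. Ins2 and Iapp were singled out after their values were seen, and the Ins2 probe set may also read its near-identical copy Ins1.

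The summed signal of the 10 pancreatic markers on the array was 1382, 3975, 3425 and 1046 in wild-type replicates 1 to 4. In knockout replicates 1 to 4 it was 6096, 1156, 1580 and 962, with 1 of the 10 under the filter. Knockout replicate 1 and wild-type replicates 2 and 3 were thus highest in this sum. Ins2 stood otherwise, with 28 in wild-type replicate 2 and 137 in knockout replicate 3. By the naming rule, Bhlha15 (0.55, adjusted p = 0.11) and Cela1 (-0.49, adjusted p = 0.315) had the smallest p of this list, and 0 were called by limma (0 lower and 1 higher at an unadjusted p under 0.05). With the 3 arrays of high Ins2 left out, an alternative added after the data were seen, the log2 fold change of Gcg was 0.17 (adjusted p = 0.473). In that fit 7 hormone genes were called as lower, namely Sct, Pyy, Nts, Insl5, Gip (-2.10), Cck (-0.75) and Sst (-0.92). The knockout arrays left out there held the highest knockout value of every hormone gene, and the wild-type array left out held the lowest wild-type value of 6. The part of pancreatic RNA in the hormone values was not tested.

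**Figure D3:**
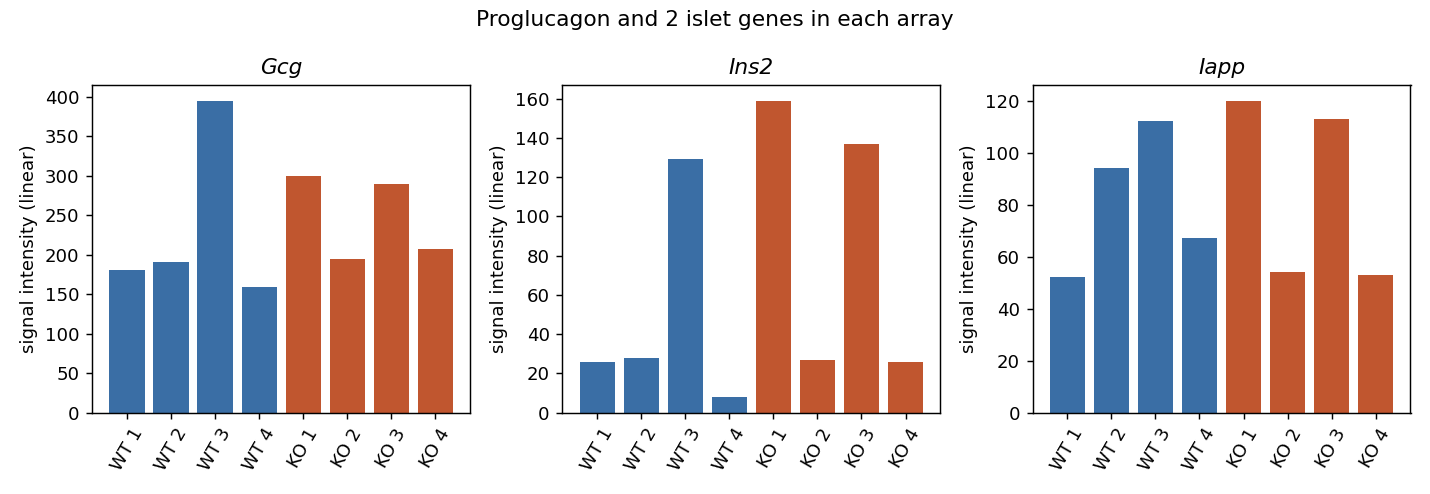
Signal intensity (linear) of the Gcg, Ins2 and Iapp probe sets in each array, wild-type (WT) in blue and knockout (KO) in orange. Wild-type replicate 3 and knockout replicates 1 and 3 have the highest Gcg (395, 300 and 289), Ins2 (129, 159 and 137) and Iapp (112, 120 and 113) signals.

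Ghrelin, encoded by Ghrl, is a hunger hormone made mainly in the stomach and also in the upper intestine. Signals of 1448980_at were 103, 106, 61 and 79 in wild-type and 109, 90, 92 and 94 in knockout replicates 1 to 4, with overlap throughout. The log2 fold change was 0.14 (95% interval -0.22 to 0.51, limma adjusted p = 0.646). Of the 13 stomach markers, 8 were under the filter, and their summed signal was 652 to 1083 in wild-type and 301 to 1099 in knockout arrays. Tff2, a trefoil peptide of gastric mucous cells, was lower (-2.56 ± 0.71 SE, limma adjusted p = 0.0367). Its size was -3.69 with an added 1, where the call ended (adjusted p = 0.0575), and -1.65 with an added 64. The groups overlapped, with 103 to 426 in wild-type and 3 to 213 in knockout arrays. The call also ended on leaving out any of knockout replicates 1 and 3 and wild-type replicates 1, 2 and 4 (0.0811 to 0.106). It ended in 11 of the 22 alternatives in all. The part of stomach tissue in the Ghrl and Sst values was not tested.

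Somatostatin, encoded by Sst, is the inhibitory peptide of D cells. Its probe set 1417954_at gave 96, 132, 56 and 147 in wild-type and 119, 74, 79 and 44 in knockout replicates 1 to 4. Both groups were spread over more than their difference, and the log2 fold change of -0.37 (95% interval -0.99 to 0.24) did not pass (limma adjusted p = 0.451).

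Tac1 encodes the precursor of substance P and neurokinin A, which enterochromaffin cells and enteric neurons release. Probe set 1416783_at gave 353, 378, 256 and 326 in wild-type and 304, 289, 243 and 249 in knockout replicates 1 to 4. Wild-type replicate 3 lay among the knockouts, and the log2 fold change was -0.25 (95% interval -0.55 to 0.04, limma adjusted p = 0.27). The other Tac1 probe set, 1431883_at, was under the filter, with 15 to 24 in wild-type and 4 to 33 in knockout arrays (exact two-sided permutation p = 0.914, the smallest possible for 4 against 4 being 0.0286). Among enteric neuron markers, 10 of 13 tested had a positive log2 fold change and 0 were called by limma (0 lower and 3 higher at an unadjusted p under 0.05). Elavl4, an RNA-binding protein of neurons (0.68, adjusted p = 0.0878), and Uchl1, a neuronal deubiquitinase (0.50, adjusted p = 0.148), were nearest to the threshold. Their summed signal was 847 to 1461 in wild-type and 954 to 1840 in knockout arrays. Of 8 smooth muscle markers, Smtn, a contractile protein, was called as higher (0.67, adjusted p = 0.0159), all 8 had a positive log2 fold change (median 0.50), and 4 were higher at an unadjusted p under 0.05. The call of Smtn ended on leaving out any of knockout replicates 1 and 2 and wild-type replicates 1 and 2 (0.0524 to 0.0605) and in 9 of the 22 alternatives in all. The summed signal of the 8 muscle markers was 7887 to 13691 in wild-type and 10181 to 16470 in knockout arrays. For reading the neuron and muscle counts, 8.50% of all 12838 genes were called as lower and 6.60% as higher. At an unadjusted p under 0.05 by limma, 15.0% were lower and 14.7% higher, and 5999 of the 12838 had a negative log2 fold change. The part of the muscle and nerve layers in the Tac1 values was not tested.

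The hormones differed in how wild-type replicate 3 stood to the other 3 wild-types. Its signal was 0.14 of their mean for Insl5, 0.45 for Sst, 0.46 for Nts, 0.64 for Gip and Ghrl and 0.73 for Tac1. It was 0.96 for Pyy, 1.04 for Cck and 1.07 for Sct, and 2.24 for Gcg. So among the 4 lower hormones, Sct and Pyy were even across the wild-types, while Nts and Insl5 were not. Among the knockouts, replicate 1 was highest or tied for 8 of the 10 genes and replicate 4 lowest for 5. The 2 knockouts with Xist signal had a mean of 147 against 139 in the other 2 for Nts, 209 against 249 for Sct, 106 against 83.5 for Pyy and 18.5 against 9.5 for Insl5.

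Genes most like each lower hormone were taken as those with the smallest root mean square difference over the 8 arrays, after each gene's log2 values were centred on their own mean, among 12828 other genes. For Sct these were Slc35f6 (0.09), Ero1b (0.09), an oxidase of disulfide formation in the endoplasmic reticulum, and the splicing factor gene Prpf6 (0.14). Ero1b gave 139, 151, 141 and 120 in wild-type and 75, 52, 60 and 56 in knockout replicates 1 to 4, so that, as for Sct, wild-type replicate 3 was level with the others. Nearest to Pyy were Cbfa2t3 (0.13), the chaperone gene Dnajb11 (0.14) and the mitochondrial fusion gene Mfn2 (0.14). Nts was followed less closely, by Arsg (0.30), Kazn (0.35) and the lysosomal sulfatase gene Galns (0.41), and Insl5 by the lysosomal protease gene Ctsh (0.33), the laminin gene Lama3 (0.36) and Slc46a3 (0.37). Ctsh gave 1357, 1471, 404 and 1636 in wild-type and 137, 170, 155 and 139 in knockout arrays, with wild-type replicate 3 low as for Insl5. The shared patterns of Ero1b with Sct and of Ctsh with Insl5 follow from how these genes were chosen.

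Genes of the granule and of prohormone processing were next compared. Of 19 tested, 4 were lower and 0 higher by limma (4 and 1 at an unadjusted p under 0.05), with a median log2 fold change of -0.02. The background over 12838 genes was 8.50% lower and 6.60% higher, and 15.0% and 14.7% at an unadjusted p under 0.05. Slc18a1, the vesicular transporter that loads serotonin into granules, gave 477, 535, 229 and 453 in wild-type and 66, 159, 112 and 103 in knockout replicates 1 to 4. It was lower in each knockout than in any wild-type, at -1.79 ± 0.27 (SE, limma adjusted p = 0.00087). Its other tested probe set, 1446248_at, did not pass (-0.30, adjusted p = 0.314).

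Chromogranin B, encoded by Chgb, is a core protein of the granule. Signals were 672, 863, 558 and 692 in wild-type and 430, 260, 391 and 257 in knockout replicates 1 to 4, with no overlap, and the log2 fold change was -1.04 ± 0.18 (SE, limma adjusted p = 0.00258). Chromogranin A, encoded by Chga, gave 126, 145, 63 and 117 against 62, 33, 53 and 43, so that wild-type replicate 3 was 1 unit above knockout replicate 1. Chga fell by 0.99 on the log2 scale (limma adjusted p = 0.0148). Leaving out knockout replicate 2, wild-type replicate 1 or wild-type replicate 2 ended this call (0.0514 to 0.0559), and it ended in 7 of the 22 alternatives in all, with an adjusted p of up to 0.108 with the Xist signal as a covariate. Rab3d, a small GTPase of secretory granules, was called at -0.46 (adjusted p = 0.0268), a call that ended on leaving out any of knockout replicates 1, 2 and 3 and wild-type replicates 1, 2 and 4 (0.0527 to 0.0817). Its other 3 probe sets did not pass (-0.32 to -0.10). The convertase gene Pcsk1 (-0.31, adjusted p = 0.527), the carboxypeptidase gene Cpe (0.38, adjusted p = 0.326) and the secretogranin gene Scg2 (0.25, adjusted p = 0.326), named after their values were seen, did not pass.

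**Figure D4:**
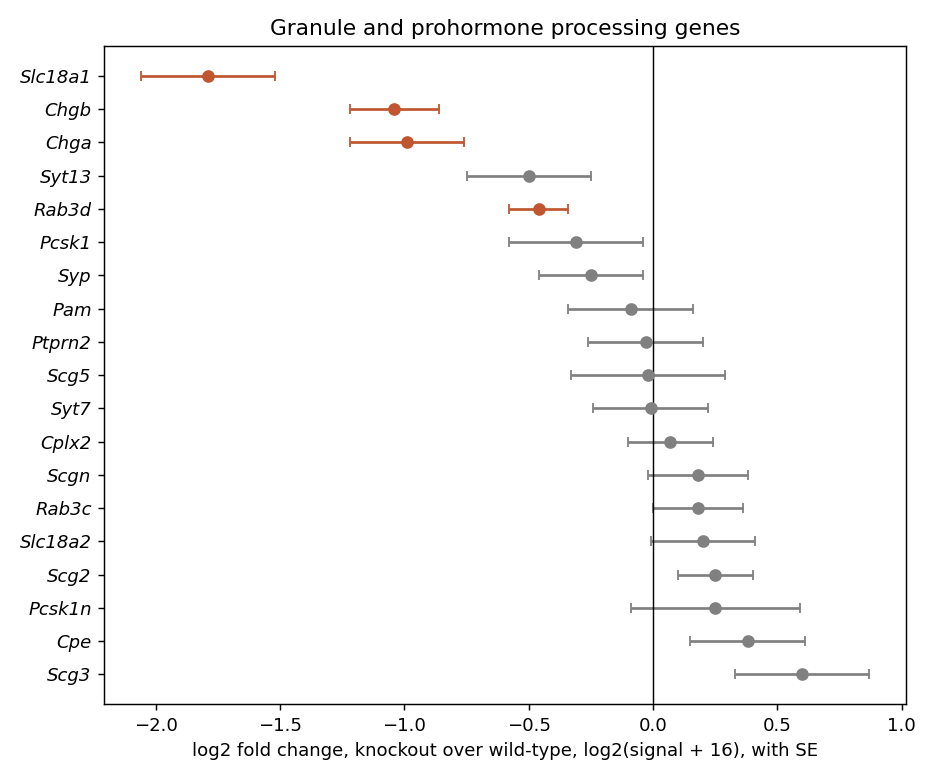
Log2 fold change with its SE (knockout over wild-type, 16 added to each signal) of the 19 tested granule and prohormone processing genes; orange points had an adjusted p under 0.05. Slc18a1 (-1.79), Chgb (-1.04), Chga (-0.99) and Rab3d (-0.46) are the 4 called, and the others lie between -0.50 and 0.60.

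Endocrine transcription factors were mostly dim, with 12 of 24 tested, and 0 were called by limma (1 lower and 2 higher at an unadjusted p under 0.05). Neurog3, the factor that starts the endocrine lineage, was nearest to the threshold. It gave 51, 74, 71 and 41 in wild-type and 34, 33, 29 and 34 in knockout replicates 1 to 4, and the groups did not overlap. The log2 fold change of Neurog3 was -0.61 ± 0.19 (SE, adjusted p = 0.0566). Sox4, a factor of endocrine progenitors and other cells, had 0.42 (adjusted p = 0.0958).

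Other gut peptide and amine genes had 9 of 22 tested, with 0 lower and 1 higher by limma (0 and 4 at an unadjusted p under 0.05). The higher gene was Ddc, the decarboxylase that makes serotonin and dopamine and is also expressed in enterocytes, at 458 ± 53.7 and 639 ± 103 (SD, n = 4, log2 fold change 0.46, adjusted p = 0.0419). This call ended on leaving out any of knockout replicates 1, 2 and 3 and wild-type replicates 1, 3 and 4 (0.0667 to 0.134). It ended in 14 of the 22 alternatives in all, and its size dropped to 0.28 once Xist entered the fit (adjusted p = 0.277) and to 0.27 when both Xist-bright arrays were dropped (0.287).

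Hormone receptors were mostly under the filter, with 8 of 24 tested. Of these 0 were lower and 1 higher by limma (0 and 1 at an unadjusted p under 0.05). Sort1, sortilin, a sorting receptor that binds neurotensin, gave 162, 156, 196 and 121 in wild-type and 333, 366, 340 and 294 in knockout replicates 1 to 4. Every knockout was above every wild-type, at 1.01 ± 0.14 (SE, limma adjusted p = 0.000548), and its other 2 probe sets were called as higher too (0.66 each). Thus Nts was lower and Sort1 higher in the same arrays. The nutrient sensor list had 6 of 20 tested and 0 called by limma (0 lower and 1 higher at an unadjusted p under 0.05), with Kcnj11, a potassium channel subunit, at 0.55 (adjusted p = 0.0943) and the short-chain fatty acid receptor gene Ffar2 at -0.28 (adjusted p = 0.352).

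Among 9 tested peptidases that can degrade gut peptides, 1 was lower and 2 higher by limma, against 8.50% and 6.60% of all genes. At an unadjusted p under 0.05, 2 were lower and 6 higher, and the median log2 fold change was 0.29. Anpep, the brush border aminopeptidase N, had 1567 ± 297 in wild-type and 3572 ± 604 in knockout arrays (SD, n = 4, log2 fold change 1.19 ± 0.15 SE, limma adjusted p = 0.000219). Enpep, aminopeptidase A, was higher by 0.26 (adjusted p = 0.0189), and Mme, neprilysin, was lower at -0.55 (adjusted p = 0.0303). Neither call was kept with each array left out. That of Enpep ended on leaving out any of knockout replicate 2 and wild-type replicates 1, 2 and 4 (0.0534 to 0.0615). In all it ended in 10 of the 22 alternatives. That of Mme ended on leaving out any of knockout replicates 1, 2 and 4 and wild-type replicates 1, 2 and 4 (0.0705 to 0.0934). In all it ended in 11 of the 22 alternatives. The other Mme probe set, 1422975_at, was called as lower too (-0.81, limma adjusted p = 0.0355). Dpp4, which inactivates GLP-1 and Gip and was named after its value was seen, did not pass (0.29, adjusted p = 0.0636).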

How the data were processed

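The deposited values are linear signal intensities, 1 for each of 45101 probe sets on each of 8 arrays. Trimmed of 2% at each end, every array has a mean of 150.05, so a scaling by the authors is in the values. The signal algorithm is not given in the sources used here. Probe sets were named from the platform annotation (34958 with 1 symbol, 932 with several, 9211 with none).

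Control probe sets (64) were left out, and so were the 40% lowest by mean log2(signal + 16), about 23.0 in signal. For the other 27022, genotype was the only term in limma 3.58.1 (R 4.3.3, moderated with an intensity trend), tested two-sided, with p-values adjusted over all of them. Listed genes with several tested probe sets were read from the brightest. The test was checked on simulated data. From each list beside the hormones, called genes were named (at most 6), or the 2 with smallest p where none was called. Hormones and lists were chosen with earlier results of these data known. Alternatives were other filters, added constants, quantile normalization, a replicate block, array weights, other variance models, Xist or 3' to 5' ratio covariates, and arrays left out. The number of arrays limits the precision.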

Additional observations from a re-analysis of the deposited data

Results flagged for a closer look

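In 22 groups of 4 arrays (11 hormone probe sets in each genotype), 2 held an array whose distance to its nearest neighbour took most of the group's range on the log2 scale. At that limit, chance gives about 1 in 20 groups. Wild-type replicate 3 was also far from the other wild-types for Insl5 (29 against 170, 218 and 237) without passing the limit. For Pyy, knockout replicate 4 gave 59 against 105 to 108 in the other knockouts (gap over range 0.951). For Nts, wild-type replicate 3 gave 235 against 496 to 547 in the other wild-types (0.882).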

How the results depend on the processing

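The 4 hormone genes were lower in the main analysis. With an unmoderated linear model 1 hormone gene was lower (Sct), and without the arrays of high Ins2, chosen after the data were seen, 7 were. The range was 3 to 6 with 1 array left out, the 6 coming without knockout replicate 1 and the 3 without wild-type replicate 2. No hormone gene was called as higher by limma under any alternative run, and no value of a called gene changed sign. Over all probe sets, 1811 were lower and 1427 higher. Adjusting for each array's ratio of 3' to 5' control signal left 919 and 471. Higher calls numbered 2631 with array weights, 883 in an unmoderated linear model, 778 after adjusting for Xist, and 807 when both Xist-positive arrays were dropped. With 1 array left out they were 1296 to 2161 lower and 876 to 2085 higher, with 920 higher without wild-type replicate 1 and 876 without knockout replicate 2. Replicate numbers are shared between genotypes, and deviations of same-numbered arrays had correlations of -0.274 to -0.0111. These correlations gave no sign of pairing, but the labels do not say whether the numbers stand for pairs. With the replicate block 1164 were lower and 751 higher, 3 hormone genes were lower, and the adjusted p of Nts was 0.0525. The causes were not tested.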
